A study of Mus musculus with 6 samples.

Results

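The 10 genes described here encode matrix proteins of connective tissue other than collagens, together with a receptor that marks the cells making them: Dcn, Lum, Fn1, Sparc, Fbln1, Fbln2, Fbn1, Postn, Thbs1 and Pdgfra. They were chosen by gene symbol, and all 10 were present among the 23946 genes of the deposited expression table. The table holds RNA sequencing of cells sorted as macrophages (CD45+, CD11b+ and F4/80+) from 2 fat depots, omentum (OM) and mesenteric adipose tissue (MY), of C57BL/6 mice, which the study's methods give as females of 6 to 8 weeks. Each tissue was taken from naive mice (OM 0h and MY 0h), and 24 h (OM 24h and MY 24h) and 7 d (OM 7d and MY 7d) after injection of ID8 cells into the peritoneal cavity. ID8 is a tumour line derived from the ovarian surface epithelium of C57BL/6 mice. The labels call the controls naive and name no vehicle-injected group, so an effect of the injection itself and of the cells injected cannot be told apart. The study describes omenta of 9 mice processed as 3 groups of 3 mice, and gives an n of 3 for RNA sequencing. How these groups map to the time points, and how the mesenteric tissue was pooled, is not stated in the sources used here. In the deposited data each of the 6 conditions has 1 library. The spread between replicates cannot be estimated, no p-value is given, and every difference below describes a pair of libraries.

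The extracellular matrix is laid down mainly by fibroblasts and, at the surface of the omentum, by the mesothelium. Decorin (Dcn) and lumican (Lum) are small leucine-rich proteoglycans that bind collagen fibrils, fibrillin-1 (Fbn1) builds microfibrils, and the fibulins (Fbln1 and Fbln2) link elastic fibres and basement membranes. Fibronectin (Fn1) is the adhesive glycoprotein to which cells attach through integrins, and SPARC (Sparc), periostin (Postn) and thrombospondin-1 (Thbs1) are matricellular proteins, which change how cells respond to the matrix rather than building it. PDGF receptor alpha (Pdgfra) is a receptor tyrosine kinase used as a marker of fibroblasts and their precursors. Of these genes, Fn1 and Thbs1 are well known to be transcribed by macrophages as well.

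In the NCBIM37 assembly, which is the build called mm9 that the authors aligned to, all 10 genes are annotated as protein-coding. Dcn lies on chromosome 10 (plus strand) from 96942245 to 96980777, and Lum follows on the same strand from 97028135 to 97035337. Fbn1 lies on the minus strand of chromosome 2 from 125126330 to 125333729 and Thbs1 on the plus strand of the same chromosome from 117937612 to 117952869. Fn1 lies on the minus strand of chromosome 1 from 71632094 to 71699774, Sparc on the minus strand of chromosome 11 from 55208002 to 55233582, and Fbln1 on chromosome 15 (plus strand) from 85036379 to 85116965. Fbln2 occupies chromosome 6 from 91162449 to 91222534, Postn chromosome 3 from 54165031 to 54194961 and Pdgfra chromosome 5 from 75548316 to 75594229, each on the plus strand. For 8 of the genes, no window of 75 bases of the longest coding transcript, the read length of the study, occurs in a coding transcript of another gene. Fn1 shares 175 of its 8238 windows with Apol7d and Fbn1 shares 2368 of its 11897 windows with Gm9913, in both cases a gene annotated on the opposite strand that overlaps it. Apol7d was at an FPKM of 0.0857 in OM 24h and listed at 0 in the other libraries, and Gm9913 was not analysed here. Whether the counting used strand is not given in the sources used here.

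The promoter sequences of 4 of the genes are shown because their courses differ, as described further on: Sparc and Fbln2 rose together in the omentum, Fbln1 fell there at 24 h, and only Postn overlapped between the tissues. The table of RefSeq promoters used here (GRCm38.p6) matched 6 of the 10 genes, and those of Dcn, Lum, Fn1 and Thbs1 were not analysed here. That build differs from the mm9 positions above, so the coordinates cannot be set side by side. Fbln1 and Postn each have 2 listed starts, and the upstream one is shown for Fbln1 and the downstream one for Postn. Each line gives the 120 bases before a start site, 5′ to 3′ on the strand of the gene, at chr11:55420081-55420200 (Sparc, minus strand), chr6:91212644-91212763 (Fbln2), chr15:85205829-85205948 (Fbln1) and chr3:54360987-54361106 (Postn). Capitals mark a match to the TATA box (TATAAA), the GC box (GGGCGG), the CCAAT box (CCAAT), the AP-1 site (TGANTCA) or a TEAD site (GGAATG), each searched on both strands.
Sparc: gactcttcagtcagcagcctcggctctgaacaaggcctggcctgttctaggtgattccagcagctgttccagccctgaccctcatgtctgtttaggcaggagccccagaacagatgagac
Fbln2: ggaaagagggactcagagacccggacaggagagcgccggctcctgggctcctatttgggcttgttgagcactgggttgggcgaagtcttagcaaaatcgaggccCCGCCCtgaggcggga
Fbln1: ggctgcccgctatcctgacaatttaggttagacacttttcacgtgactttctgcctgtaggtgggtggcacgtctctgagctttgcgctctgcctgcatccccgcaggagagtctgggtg
Postn: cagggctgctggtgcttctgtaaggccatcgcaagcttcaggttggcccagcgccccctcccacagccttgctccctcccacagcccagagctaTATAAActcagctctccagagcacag
The printed Postn start holds TATAAA 26 bases upstream, a motif present in 13.6% of the 32851 mouse promoter windows of 300 bases (250 before and 50 after the start). The window of the Postn start that is not printed lacks TATAAA. It holds the CCAAT box 24 bases after the start on the opposite strand, and 37.4% of all windows hold that motif. The Fbln2 start holds the GC box 16 bases upstream on the opposite strand, and 35.7% of all windows hold that motif. The window of Fbln2 holds the GC box again 6 bases after the start. The Fbln1 start that is not printed also holds the GC box, 11 bases before and 11 bases after it, so the motif does not separate the fibulin genes. None of the 5 motifs was found in the printed bases of Sparc and Fbln1. No window of the 6 genes held the AP-1 or the TEAD letters, which occur in 7.81% and 14.7% of all windows. A match describes the letters only, and the absence of a match says nothing of the factor.

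The expression values are fragments per kilobase per 1000000 aligned reads (FPKM), which are scaled to gene length, so levels of different genes may be set side by side. Differences were taken on the log2(FPKM + 1) scale, where the added 1 shrinks changes at low FPKM, and a difference of at least 2-fold, or 1 on that scale, was counted as higher or lower. The values of a library summed to between 526887 (MY 0h) and 713863 (OM 24h), and low values gave a rough depth between 0.853 (OM 0h) and 1.48 (OM 7d) relative to MY 0h. How many reads lie behind a value cannot be read from FPKM. The genes of the sort markers were present in all 6 libraries: Ptprc (CD45) ranged from 105.8 to 208.3, Itgam (CD11b) from 27.8 to 150.9 and Emr1 (F4/80) from 20.5 to 135.0. An exact 0 in this table may be a failed estimate, since Cd74, an abundant antigen-presentation gene of macrophages, is listed at 0 in OM 24h and at 11323 or more in the other libraries.

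A gene was called expressed when any library had it at an FPKM of 1 or more, and all 10 genes were among the 13064 that passed. Values of a tissue are given in the order 0h, 24h and 7d. Dcn, Fn1 and Sparc reached it in all 6 libraries. Lum, Fbln1, Fbln2, Fbn1 and Pdgfra reached it in no mesenteric library, so these 5 genes entered through the omentum and had to be higher there. The summed FPKM of the 10 genes was 370.2, 736.1 and 1301 in the omentum, or 0.0596%, 0.103% and 0.232% of all FPKM. In the mesentery the sum was 7.06, 35.0 and 9.81, at most 0.00612% of all FPKM. Matrix transcripts were thus a minor part of every library, but the omental libraries carried at least 10 times the sum of any mesenteric one. Bulk RNA cannot tell more cells of a type from more RNA per cell.

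**Figure D1:**
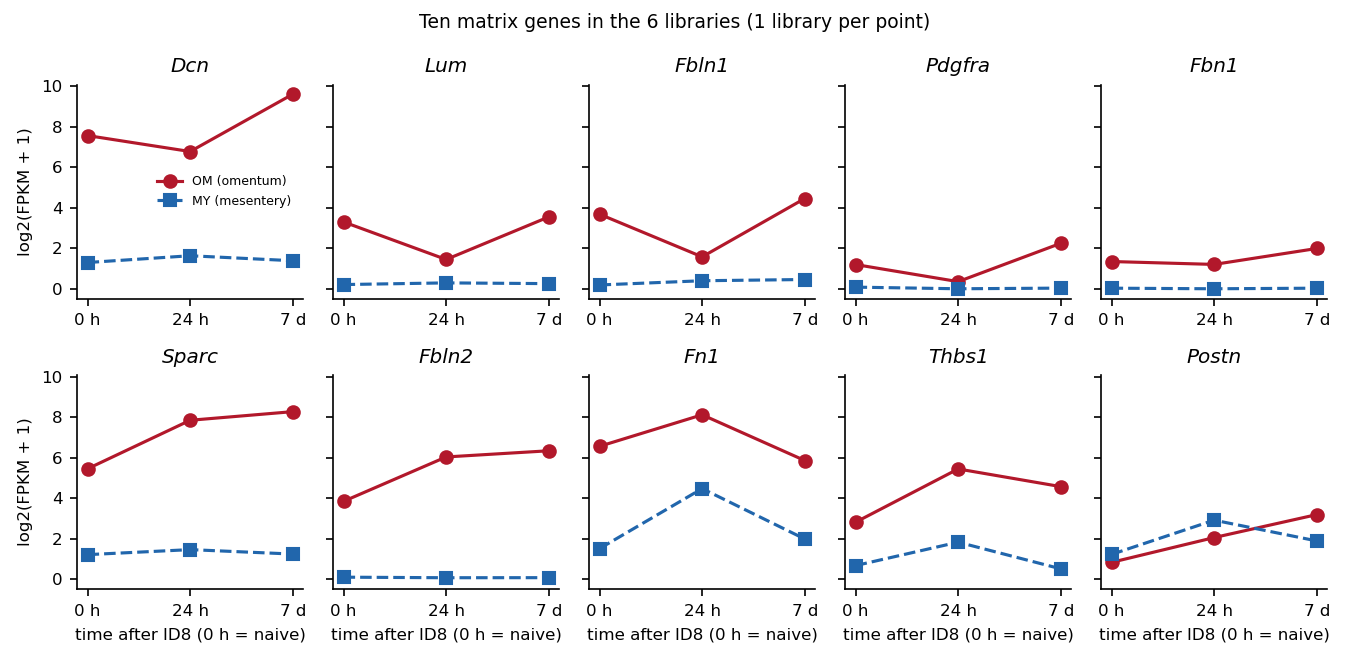
Levels of the 10 matrix genes as log2(FPKM + 1) against time after ID8 injection, with omental libraries as red circles and mesenteric libraries as blue squares, 1 library per point. Dcn, Lum and Fbln1 dipped at 24 h in the omentum, Sparc and Fbln2 were higher at both later times, Fn1 peaked at 24 h in both tissues, and the lines of Postn crossed.

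The naive tissues already differed. In OM 0h, 9 of the 10 genes were at least 2-fold higher than in MY 0h and 0 were lower, where 8.18% of expressed genes were higher and 8.05% lower. At 24 h, 8 of the 10 were higher in the omentum (13.9% of expressed genes) and 0 lower (10.2%). At 7 d all 10 were higher in the omentum (14.1%) and 0 lower (4.99%). These counts include Lum, Fbln1, Fbln2, Fbn1 and Pdgfra, which passed the filter only through the omentum. Their higher omental levels were in part fixed by the filter. The median log2 difference of the 10 genes was 3.30, 2.41 and 3.94 at the 3 times, against 0.01, 0.00 and -0.01 for all expressed genes. For 7 genes, the lowest omental library was at least 2-fold above the highest mesenteric library, as were 2.73% of expressed genes, and 0 genes showed the reverse (2.12%). Without the naive, the 24 h or the 7 d libraries, this count was 8, 9 and 7. The 3 genes outside it were Postn, whose tissues overlapped, Thbs1, whose gap of 0.99 fell just short, and Pdgfra, whose gap was 0.27 because its values were low.

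**Figure D2:**
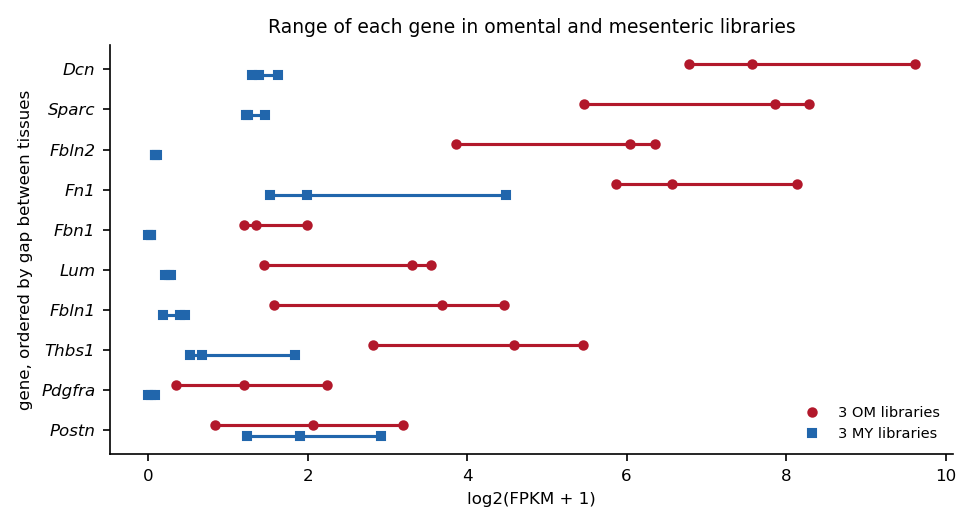
Range of each gene over the 3 omental (red circles) and the 3 mesenteric (blue squares) libraries on the log2(FPKM + 1) axis, ordered by the gap between the lowest omental and the highest mesenteric value. The gap was widest for Dcn at 5.15, and Postn alone overlapped, with a gap of -2.08.

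Dcn, the proteoglycan that binds collagen and growth factors, was the most abundant of the 10 genes in OM 0h and OM 7d. Its omental FPKM values were 188.9, 108.9 and 781.6, and its mesenteric ones 1.46, 2.10 and 1.61. The lowest omental library was 51.9 times the highest mesenteric one. In OM 7d, Dcn stood at rank 63 of all expressed genes, compared with rank 507 in OM 0h and 1022 in OM 24h. The value at 24 h was lower than in OM 0h by less than 2-fold (log2 difference -0.79), and the rise at 7 d was 2.04 against OM 0h and 2.83 against OM 24h. OM 0h is the shared control of both time points, so their values are not independent. In the mesentery no difference over time exceeded 0.33.

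Lum and Fbln1 fell by more than 2-fold at 24 h in the omentum and returned at 7 d. Dcn, Pdgfra and Fbn1 were also lowest in OM 24h among the omental libraries, but their falls from OM 0h were under 2-fold. The course was not particular to these genes, since Fmod, Ogn and Clec3b also fell by more than 2-fold at 24 h and rose again by 7 d. Nor was it particular to matrix or fibroblast genes. All 5 B cell genes and all 6 T and NK cell genes of the marker lists fell and rose likewise. Of expressed genes, 6.45% fell at 24 h and 7.03% rose from 24 h to 7 d. Lum, the keratan sulfate proteoglycan of the decorin family, had omental FPKM values of 8.87, 1.73 and 10.7 and mesenteric ones of 0.155, 0.223 and 0.193. Fbln1, which encodes fibulin-1, had 11.9, 1.98 and 21.0 against 0.139, 0.317 and 0.373. In both genes every omental library was above every mesenteric library, and OM 24h was the lowest omental library. Lum fell by 1.86 at 24 h on the log2(FPKM + 1) scale, and Fbln1 fell by 2.11. From 24 h to 7 d Lum rose by 2.10 and Fbln1 by 2.88, whereas their differences between OM 7d and OM 0h (0.25 and 0.77) were under 2-fold.

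Pdgfra and Fbn1 were low throughout and highest in OM 7d. Pdgfra, the fibroblast receptor, was at 1.29, 0.277 and 3.74 in the omentum. In the mesentery it was at 0.0573 (MY 0h) and 0.0226 (MY 7d) and listed at 0 in MY 24h. Fbn1, the microfibril gene, was at 1.54, 1.30 and 2.97 in the omental libraries and at 0.0203 in both MY 0h and MY 7d, and it too was listed at 0 in MY 24h. The order of the omental libraries was the same in both genes, with OM 24h lowest and OM 7d highest. The difference of Pdgfra between OM 7d and OM 0h was 1.05 and that between OM 7d and OM 24h was 1.89. With a pseudocount of 5 these became 0.47 and 0.73. At 24 h the difference of Pdgfra from OM 0h was -0.84, and it passed 2-fold with a pseudocount of 0.1 (-1.89) and when libraries were scaled to equal sums (-1.15). For Fbn1, no difference within the omentum reached 2-fold on this scale. Against the mesentery, the differences in the naive libraries (1.12 for Pdgfra and 1.32 for Fbn1) became 0.32 and 0.38 with a pseudocount of 5. Pdgfrb, the second PDGF receptor, was at 1.31, 0.649 and 3.60 in the omental libraries, and the ratio of Pdgfra to Pdgfrb was 0.985 in OM 0h, 0.427 in OM 24h and 1.04 in OM 7d.

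Sparc and Fbln2 did not share the dip at 24 h. Sparc, a collagen-binding matricellular protein, had FPKM values of 43.1, 231.3 and 311.1 in the omentum and of 1.33, 1.77 and 1.38 in the mesentery. Fbln2, which encodes fibulin-2, was at 13.5, 65.2 and 80.7 in the omentum and at 0.0776, 0.0572 and 0.0597 in the mesentery. In both genes OM 0h was the lowest omental library and still lay far above every mesenteric library. Sparc rose by 2.40 at 24 h and by 2.82 at 7 d against OM 0h, and Fbln2 by 2.19 and 2.50. From 24 h to 7 d both differed by under 2-fold (0.43 and 0.31). The fibulin genes therefore moved apart: the ratio of Fbln2 to Fbln1 was 1.14 in OM 0h, 32.8 in OM 24h and 3.85 in OM 7d. The ratio of Dcn to Sparc went from 4.38 in OM 0h to 0.471 in OM 24h and 2.51 in OM 7d.

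Fn1 and Thbs1 peaked at 24 h, and they did so in both tissues. Fn1, the fibronectin gene, had omental values of 94.2, 279.3 and 57.6 and mesenteric values of 1.87, 21.4 and 2.99. Thbs1, whose product binds CD36 and CD47, was at 6.08, 42.9 and 23.0 in the omentum and at 0.602, 2.57 and 0.435 in the mesentery. The 24 h library was the highest of its tissue for both genes, and every omental library was above every mesenteric one. In the omentum the rise at 24 h was 1.56 for Fn1 and 2.63 for Thbs1, and in the mesentery it was 2.96 for Fn1 and 1.16 for Thbs1. At 7 d the genes differed: Fn1 fell by 2.26 from its level at 24 h, to -0.70 against OM 0h, while Thbs1 was still 1.76 above OM 0h. The rise of Thbs1 in the mesentery rests on an FPKM of 2.57 and became 0.44 with a pseudocount of 5. Under that setting its tissue difference in the naive libraries went from 2.14 to 0.98.

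Postn was the exception to the tissue difference. The FPKM of periostin was 0.790, 3.18 and 8.18 in the omentum and 1.35, 6.59 and 2.73 in the mesentery. The tissues overlapped, with the mesentery higher in the naive libraries and at 24 h by less than 2-fold (log2 differences -0.39 and -0.86) and the omentum higher at 7 d by 1.30. At 24 h, the difference passed 2-fold toward the mesentery with a pseudocount of 0.1 (-1.03) and when libraries were scaled to equal sums (-1.20). In the omentum Postn rose by 1.22 at 24 h and by 2.36 at 7 d, and in the mesentery by 1.69 at 24 h. With a pseudocount of 5 the rises at 24 h became 0.50 and 0.87, and the tissue difference at 7 d 0.77.

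**Figure D3:**
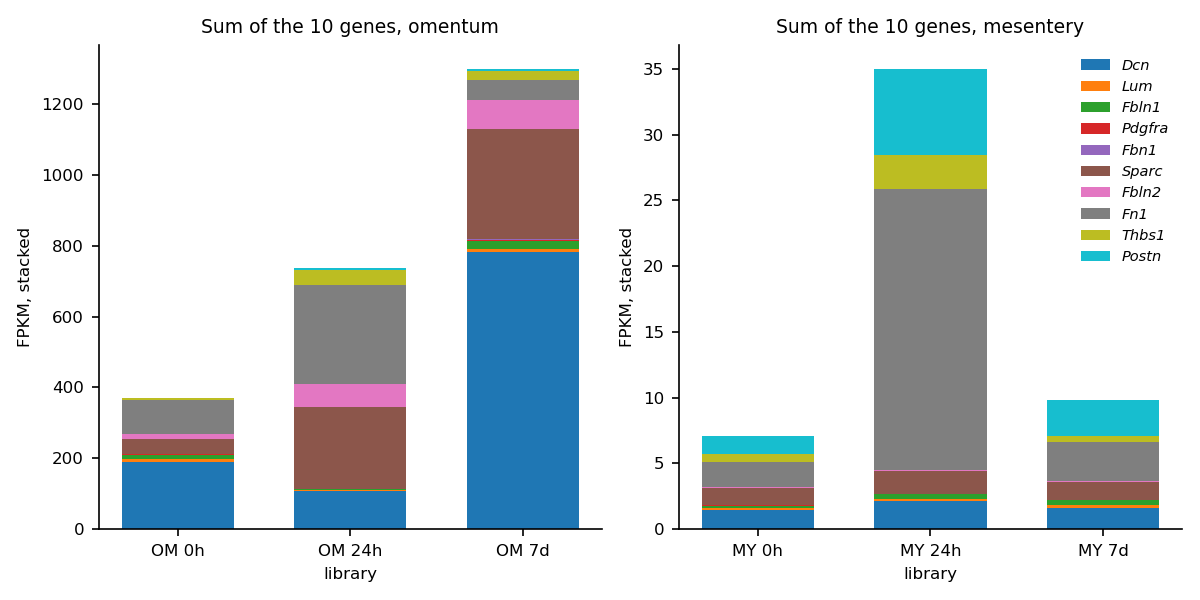
FPKM of the 10 genes stacked by library, omentum on the left and mesentery on the right with its own axis. Dcn made up 51.0%, 14.8% and 60.1% of the omental sums in order of time, and Fn1 made up 61.1% of the sum in MY 24h.

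The make-up of the summed FPKM changed with time. Dcn held 51.0% of the sum of the 10 genes in OM 0h, 14.8% in OM 24h and 60.1% in OM 7d. Fn1 held 25.5%, 37.9% and 4.43%, and Sparc held 11.7%, 31.4% and 23.9%. Among the omental libraries, OM 24h was the one in which Fn1 and not Dcn led. In the mesentery the sum was spread more evenly in MY 0h (Fn1 26.5%, Dcn 20.6%, Postn 19.1% and Sparc 18.8%), and Fn1 alone held 61.1% in MY 24h. Postn held between 18.8% and 27.8% of the mesenteric sums but at most 0.629% of the omental ones.

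Counted over time, 5 of the 10 genes (Fn1, Sparc, Fbln2, Postn and Thbs1) rose at 24 h in the omentum, where 11.9% of expressed genes did, and 2 (Lum and Fbln1) fell (6.45%). At 7 d against OM 0h, 6 genes were higher (Dcn, Sparc, Fbln2, Postn, Thbs1 and Pdgfra, 11.0% of expressed genes) and 0 lower (1.96%). From 24 h to 7 d, 5 genes rose (Dcn, Lum, Fbln1, Postn and Pdgfra, 7.03%) and Fn1 fell (4.52%). In the mesentery 3 genes rose at 24 h (Fn1, Postn and Thbs1, 2.80%) and 0 fell (1.52%). At 7 d against MY 0h, 0 of the 10 were higher (0.498% of expressed genes) and 0 lower (2.29%). The 3 genes that rose in the mesentery at 24 h also rose in the omentum at that time, and the other 7 genes stayed within 0.33 of MY 0h at both times.

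**Figure D4:**
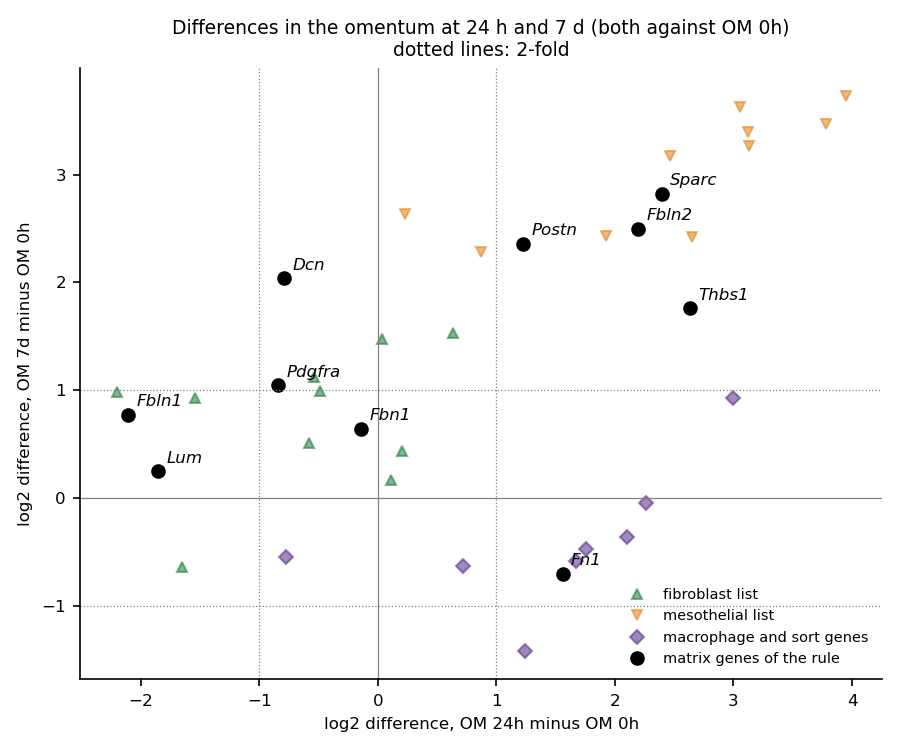
Log2 differences on the log2(FPKM + 1) scale in OM 24h (horizontal axis) and OM 7d (vertical axis), both against the same OM 0h library, for the 10 genes (black circles) and for fibroblast (green), mesothelial (orange) and macrophage and sort genes (purple); dotted lines mark 2-fold. Lum and Fbln1 lie to the left among fibroblast genes, Sparc and Fbln2 at the upper right near mesothelial genes, and Fn1 at the lower right among macrophage genes.

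To place each course, the genes with the most similar pattern were found by the smallest root mean square difference of log2(FPKM + 1) values, centred over the 6 libraries, among the 7997 or 7998 other genes that reached an FPKM of 10. The measure is a description over 6 libraries and says nothing of shared function. Closest to Dcn was Col3a1, a fibrillar collagen chain, at 0.26, followed by Igfbp6 (0.44), the neutrophil elastase gene Elane (0.61), Mgp and Col1a1 (0.74 each). Lum lay near Ppap2b (0.18), the related proteoglycan Ogn (0.24), Fbln1 (0.30), Fbxw13 (0.34) and Il5ra (0.34), the last a receptor of eosinophils and some B cells. Fbln1 lay near Clec3b (0.21), Gpc3 (0.29), Mfap5 and Lum (0.30 each) and Igfbp5 (0.31). Those neighbours include fibroblast genes with the same dip, such as Clec3b at 8.53, 1.07 and 17.9 in the omentum.

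Sparc lay nearest to Krt8 (0.22), a keratin of simple epithelia and mesothelium, then to Pcolce (0.25), Fbln2 (0.31), the heat shock gene Hspb1 (0.43) and the mesothelial marker Upk3b (0.49). Fbln2 lay nearest to Pcolce (0.22), Krt8 (0.28), Sparc (0.31), Cyr61 (0.33) and Gas6 (0.34). Upk3b was at 23.7, 214.6 and 259.4 in the omental libraries and at most 0.0682 in the mesentery. Fn1 lay nearest to Cd14 (0.39), Ccl9 (0.42) and Ccl6 (0.53), a monocyte and macrophage receptor and chemokines of myeloid cells, then to Lpl (0.61) and Clec4b1 (0.69). Thbs1 lay near Rasl10a (0.29), Ecm1 (0.33), Bcam (0.35), Mgst1 (0.36) and Chil3 (0.41), and Postn near Slc27a1 and Angptl4 (0.25 each), Fkbp5 (0.33), Cpq and Ctsf (0.34 each). Pdgfra and Fbn1 vary over a narrow range, and their nearest genes were Colec12 (0.27) and Csrnp1 (0.13). Among the 10 genes themselves the closest pairs were Lum with Fbln1 (0.30), Sparc with Fbln2 (0.31) and Fbn1 with Pdgfra (0.35), and the farthest was Dcn with Postn (3.35).

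**Figure D5:**
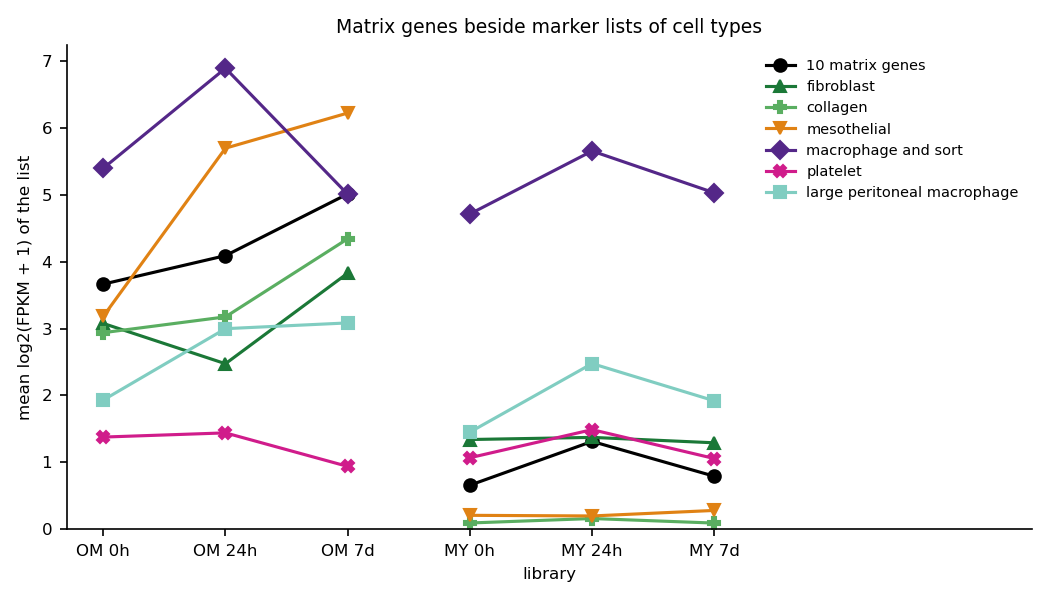
Mean log2(FPKM + 1) of the 10 matrix genes and of marker lists in each of the 6 libraries. The mesothelial list went from 3.18 in OM 0h to 5.70 and 6.23 in OM 24h and OM 7d, the fibroblast list from 3.08 to 2.47 and 3.83, and neither exceeded 1.37 in the mesentery.

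Markers of stromal cells, which the CD45 gate should leave out, were mostly higher in the omentum, as were most of the 10 genes. Thy1, which is on the fibroblast list, went the other way, at 3.34, 0.380 and 1.79 in the omentum and 18.3, 8.10 and 9.15 in the mesentery. The 6 T and NK cell genes did so too. Each was at least 2-fold lower in every omental than every mesenteric library, as were 2.12% of expressed genes. Which cells the Thy1 values came from was not tested. In the mesentery at 24 h, 0 fibroblast, collagen or mesothelial genes rose (2.80% of expressed genes). Of the fibroblast list 1 gene (Thy1) fell there (1.52%). No collagen or mesothelial gene reached an FPKM of 1 in the mesentery, so the added 1 left little room for a 2-fold call. Of 10 other fibroblast genes, all 10 were at an FPKM of at least 1 in OM 0h and OM 7d, 7 in OM 24h and 3 to 4 in the mesenteric libraries, with summed FPKM between 386.2 and 490.9 in the omentum and between 101.1 and 133.3 in the mesentery, most of it from Gsn. Of this fibroblast list 3 genes fell at 24 h in the omentum (Thy1, Clec3b and Mfap5, 6.45% of expressed genes) and 0 rose (11.9%). From 24 h to 7 d, 7 of the list rose (7.03%). The 10 collagen genes summed to 173.6, 170.8 and 535.2 in the omentum and to at most 1.22 in the mesentery, where 0 of the 10 reached an FPKM of 1. The 10 mesothelial genes summed to 107.9, 1058 and 1094 in the omentum and to between 1.67 and 2.29 in the mesentery. In the omentum 8 of them rose at 24 h (11.9% of expressed genes). The defining markers Wt1 and Upk1b were listed at 0 in MY 0h, as were Wt1 in MY 7d and Lrrn4 in MY 24h, and no mesothelial gene was at 0 in the omentum. Several of these are also expressed by ovarian epithelial cells such as ID8. The part of fibroblast, mesothelial or tumour RNA in the values of the 10 genes was not tested.

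The macrophage and sort genes other than Ptprc were highest at 24 h in both tissues, as was Fn1. The 8 macrophage and sort genes summed to 663.4, 1728 and 469.5 in the omentum and to 470.1, 777.9 and 595.5 in the mesentery, so that both tissues were highest at 24 h. At 24 h, 6 of these genes rose in the omentum (11.9% of expressed genes) and 4 rose in the mesentery (2.80%). The ratio of Fn1 to Ptprc was 0.517, 2.64 and 0.463 in the omentum and 0.00993, 0.136 and 0.0144 in the mesentery. Ptprc itself was lower at 24 h than in the naive library (log2 differences -0.78 in the omentum and -0.25 in the mesentery), which raises the ratio at 24 h. The large peritoneal macrophage genes summed to between 87.4 and 118.8 in the omentum and between 56.3 and 81.1 in the mesentery, and their defining factor Gata6, which mesothelium also expresses, was at 2.06, 15.9 and 36.7 in the omentum and at most 0.298 in the mesentery. The 5 monocyte genes found summed to between 496.4 and 742.8 in the omentum and between 308.3 and 431.4 in the mesentery. Chi3l3, also on that list, was not found under this older symbol and is left out of the sums. Under its symbol Chil3 it was at 157.2, 554.8 and 629.1 in the omentum and 36.2, 54.0 and 18.1 in the mesentery.

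Thbs1 and Sparc are also stored in platelets. The 8 platelet genes summed to 170.6, 603.3 and 28.3 in the omentum and to 15.6, 48.2 and 17.9 in the mesentery, and 1 to 3 of them reached an FPKM of 1 in a library. Most of the omental sum was Pf4, at 167.4, 601.1 and 25.8, and in the mesentery Clec1b was at 9.37, 21.2 and 13.5 and Pf4 at 2.79, 23.9 and 1.52. Gp1bb reached 2.07 (MY 24h) and Itga2b 1.31 (OM 24h), and Ppbp, Gp9, Gp1ba and Tubb1 were below 1 in all 6 libraries. Gp1ba was listed at 0 in OM 0h, Gp1bb and Tubb1 in OM 24h, and Gp9 in MY 24h. Lists of other cells gave mean log2(FPKM + 1) values of 1.31 to 2.08 in the omentum and 1.09 to 1.33 in the mesentery for endothelium, 1.43 to 2.19 and 0.32 to 0.44 for mural cells, and 0.52 to 1.66 and 0.33 to 0.59 for adipocytes. For neutrophils they were 9.24 to 10.5 and 3.19 to 6.27, for B cells 6.27 to 8.37 and 5.73 to 7.20, and for T and NK cells 1.88 to 5.01 and 6.97 to 7.76. In the omentum, the B cell mean and the T and NK cell mean were both lowest in OM 24h. The part of all these other cells in the values of the 10 genes was not tested.

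The lists held 55 other matrix genes, of which 40 were expressed. In each mesenteric library, 1 of 10 small leucine-rich proteoglycans and 4 to 6 of 16 fibulin and elastic fibre genes reached an FPKM of 1. The same held for 2 of 17 matricellular and 3 of 12 basement membrane genes. Most of the 40 therefore entered through the omentum and had to be higher in at least 1 omental library. In OM 0h against MY 0h, 28 of the 40 were higher (8.18% of expressed genes) and 1 lower (8.05%), with a median log2 difference of 1.59. At 24 h 24 were higher (13.9% of expressed genes) and 1 lower (10.2%) in the omentum (median 1.47). At 7 d 36 were higher (14.1%) and 1 lower (4.99%), with a median of 2.47. At 24 h against OM 0h, 12 rose (11.9% of expressed genes) and 7 fell (6.45%) in the omentum (median 0.12). At 7 d 22 were higher (11.0%) and 0 lower (1.96%), with a median of 1.02. In the mesentery 2 rose at 24 h (2.80% of expressed genes) and 0 differed at 7 d (0.498% higher and 2.29% lower). With a pseudocount of 5 the count higher in the naive omentum dropped from 28 to 10, which shows how far it depends on low values.

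Within the small leucine-rich proteoglycans, the family of Dcn and Lum, genes also moved in opposite directions at 24 h. Bgn (biglycan) was at 5.69, 16.4 and 28.1 in the omentum and rose at 24 h by 1.38. Fmod (fibromodulin) went from 3.32 to 0.380 and 19.3, and Ogn (osteoglycin) from 4.77 to 1.13 and 10.6, so both fell at 24 h, by 1.65 and 1.44. Prelp was at 5.30, 2.33 and 29.1. All 4 genes were below 0.4 in every mesenteric library.

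Among elastic fibre genes, Eln (elastin) was at 11.0, 9.59 and 63.2 in the omental libraries and Ltbp4, which tethers latent TGF-beta, at 16.5, 15.9 and 54.1, so both rose between 24 h and 7 d and differed by under 2-fold at 24 h. Ltbp3 rose already at 24 h, from 6.01 to 27.9 (36.1 at 7 d). Emilin2, which encodes an elastic fibre glycoprotein, was at 62.7, 112.4 and 43.7 in the omentum and 5.37, 17.0 and 6.43 in the mesentery, so the 24 h library was the highest in both tissues, as for Fn1. Its rise at 24 h passed 2-fold in the mesentery but not in the omentum (0.83).

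The matricellular genes Spp1 (osteopontin) and Tgfbi also peaked at 24 h in the omentum. Spp1 was at 7.35, 219.6 and 41.9, a rise of 4.72, and Tgfbi at 86.5, 421.3 and 104.1, a rise of 2.27. Tgfbi rose in the mesentery too, from 30.4 to 72.7. Ctgf and Cyr61, targets of the YAP pathway, were higher at both times in the omentum, with Ctgf at 1.95, 23.6 and 43.3 and Cyr61 at 11.6, 33.3 and 57.8, as were Sparc and Fbln2. Both were at most 0.101 in the mesentery.

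In the basement membrane list Nid1 (nidogen-1) fell at 24 h by 2.65, from 37.3 to 5.10, and was at 18.9 at 7 d. Lamb2 rose from 3.80 to 10.3 and 28.1. Lamc1 was at 6.87, 11.0 and 14.1, and Nid2 at 4.66, 3.89 and 10.4.

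The receptors and ligands of these proteins formed a list of 11 genes, all expressed. Of these, 2 were higher in the naive omentum (8.18% of expressed genes) and 1 in the naive mesentery (8.05%), with a median log2 difference of 0.27. At 24 h 5 were higher (13.9%) and 0 lower (10.2%) in the omentum than in the mesentery (median 0.53). At 7 d again 5 were higher (14.1%) and 0 lower (4.99%), with a median of 0.85. Cd47, a thrombospondin-1 receptor, was between 253.2 and 336.1 in all 6 libraries, and its differences did not exceed 0.41. Cd36, another receptor of thrombospondin-1, was at 35.1, 42.2 and 22.8 in the omentum and at 9.74, 17.1 and 17.8 in the mesentery. Itgb1, the integrin chain of the fibronectin receptors, fell by 1.28 at 24 h in the omentum, from 240.2 to 98.1, while its partner Itga5 rose by 1.96, from 6.46 to 28.1. Pdgfa, a ligand of PDGF receptor alpha, rose in the omentum from 5.58 to 43.1 at 24 h (2.75) and was at 23.9 at 7 d, and it was between 3.49 and 5.71 in the mesentery.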

How the data were processed

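RNA sequencing covered macrophages sorted from omentum and mesentery, in 6 libraries with 1 per condition. The authors checked reads with FastQC 0.11.4, aligned paired-end reads to NCBI37/mm9 with STAR 2.4.2a (versions per the submitters' processing notes) using a UCSC annotation, and obtained FPKM from Cufflinks. What they deposited is 1 table of FPKM by gene symbol. FPKM are not counts and no condition has a replicate, so neither a count model nor any other test was fitted. Depth is unknown from the table. Relative depth is the commonest ratio of FPKM values below 0.1 between 2 libraries.

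Differences were computed as log2(FPKM + 1) with Python 3.11.15, numpy 2.4.6 and pandas 2.3.3, and figures drawn with matplotlib 3.10.9. Genes that reached an FPKM of 1 in any library were the background. The 10 genes and the lists were chosen with earlier results of these data known. Of 173 list genes, 170 were in the table, and Mfap5, Vcan and Pdgfrb are on 2 lists. Chi3l3, Ly6g and Trac were not found under these symbols. All 10 genes were named in all libraries, with up to 4 genes of highest FPKM per matrix list, the most similar patterns, and examples of the marker lists. Genes named to illustrate a marker list were picked after their values were seen. Alternatives were pseudocounts of 0.1 and 5, rescaling by the median ratio or to a sum of 1000000, other filters, and leaving out a time point. A value was taken as unchanged within 1.5 times, or 0.58 on the log2 scale. The counting of folds, the search for similar patterns and the depth estimate were first tested on simulated data. Positions come from GENCODE M1, not the authors' annotation.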

Additional observations from a re-analysis of the deposited data

Results flagged for a closer look

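For some of the 10 genes, the difference from the naive library had opposite signs in the omentum and the mesentery. The difference between the tissues was not tested, since each time point has 1 library per tissue. At 24 h Lum was at -1.86 in the omentum and 0.083 in the mesentery on the log2(FPKM + 1) scale, Fbln1 at -2.11 and 0.21, Dcn at -0.79 and 0.33, and Fbln2 at 2.19 and -0.028. At 7 d Fn1 was at -0.70 in the omentum and 0.48 in the mesentery, Fbln2 at 2.50 and -0.024, Thbs1 at 1.76 and -0.16, and Pdgfra at 1.05 and -0.048. All 8 mesenteric values are under 2-fold, as are the omental values of Dcn and Fn1, and the mesenteric values of Lum, Fbln1, Fbln2, Thbs1 and Pdgfra rest on FPKM below 1.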

How the results depend on the processing

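No analysis paired by replicate was possible because there is a single library for every condition and no replicate number to pair by. The tissues could be compared with the time point as a block, but time points are conditions and not replicates, and this was not run. Of 320 log2 differences of the 10 genes recomputed, 252 stayed within 0.58 and 68 moved beyond it, and 0 that had passed 2-fold changed sign. Of 174 recomputed counts, 146 stayed within 1.5 times and 28 moved. With a pseudocount of 5, the count of the 10 genes higher in the omentum at 24 h went from 8 to 5, that of genes rising from 24 h to 7 d from 5 to 3, that of genes rising in the mesentery at 24 h from 3 to 1, and that of genes higher in every omental library from 7 to 4. Postn became the 1 gene lower in the omentum at 24 h with a pseudocount of 0.1 and after rescaling to a sum of 1000000. Among the genes at an FPKM of at least 1 in both libraries compared, 3 were higher in the naive omentum (Dcn, Fn1 and Sparc, all that qualified). At 24 h 4 were higher (Dcn, Fn1, Sparc and Thbs1), and Postn qualified but was not. At 7 d 4 were higher (Dcn, Fn1, Sparc and Postn, all that qualified).

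Of the matrix genes outside the 10, the pseudocount of 5 left 10 higher and 0 lower in the naive omentum, 15 and 0 at 24 h and 0 lower at 7 d against the mesentery, and within the omentum 1 falling at 24 h, 12 higher at 7 d, and 11 rising and 3 falling from 24 h to 7 d. A pseudocount of 0.1 gave 3 lower in the omentum in the naive libraries and 3 at 24 h, 12 falling at 24 h in the omentum, 8 rising and 1 falling at 24 h in the mesentery, and 3 lower there at 7 d. Rescaling to a sum of 1000000 gave 3 lower in the naive omentum, 3 at 24 h, 11 falling at 24 h and 3 falling from 24 h to 7 d. It also took the median log2 difference of all expressed genes between OM 7d and OM 24h from 0.05 to 0.36, and that between OM 24h and MY 24h from 0.00 to -0.27. Genes of moderate level also crossed the 2-fold limit without a change of direction. Emilin1 (33.6 in OM 24h and 16.2 in OM 7d) fell by 1.01 and no longer passed it with a pseudocount of 5. The cause of the shifts under rescaling was not tested. Depth limits the low values most, since the reads behind an FPKM below 1 are not known.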
